A study of Mus musculus with 6 samples.

Results

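The genes described here encode the respiratory chain and ATP synthase from the nuclear genome of the mouse. They are protein-coding genes whose symbols begin with Nduf, Uqcr, Cox4 to Cox8 or Atp5, together with Sdha, Sdhb, Sdhc, Sdhd, Cyc1 and Cycs, and whose mean over the 6 libraries was at least 1 FPKM (fragments scaled to transcript length and to library size). No difference between groups was used to choose them. Of 94 such genes 87 passed that minimum, out of 12929 genes of all kinds that passed it and 47606 genes listed. The 87 comprise 36 complex I subunits, 7 Ndufaf assembly factors, 4 complex II subunits, 9 complex III subunits, cytochrome c, 12 complex IV subunits, 15 complex V subunits and 3 factors that carry a subunit-like name without being a core part of a complex (Atp5s, Atp5sl and Cox7a2l).

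RNA was sequenced from 32D cells, a mouse myeloid line that depends on interleukin 3 and was grown in 1 ng/mL of it. All 6 libraries came from cells carrying dCas9-KRAB, a cleavage-dead Cas9 joined to a transcriptional repressor domain. The groups were guide sg2 (2 libraries), guide sg5 (2 libraries) and an empty vector without a guide (EV, 2 libraries), each delivered by lentivirus with 1 week of puromycin selection. The study's title concerns a CEBPE enhancer (CEBPE being a regulator of late granulocyte development), and the design sets EV against knockdown by sg2 and sg5. The labels number the libraries of each group 1 and 2 without saying what the number stands for. Nothing says that the numbers are separate cultures, so each p-value here reflects the spread among these libraries alone, which may be technical. One label conflict exists: replicate 2 of sg5, so named in its title, has sg2 as source name and genotype, and it is counted as sg5 here.

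Oxidative phosphorylation takes place in the inner mitochondrial membrane. Complex I (NADH dehydrogenase) and complex II (succinate dehydrogenase) pass electrons to ubiquinone. Complex III hands them to cytochrome c, and complex IV (cytochrome c oxidase) to oxygen. The proton gradient that complexes I, III and IV build drives complex V, the ATP synthase. Complex II is wholly nuclear-encoded, whereas the other complexes combine nuclear subunits with a few encoded in mitochondrial DNA, which were not analysed here. Assembly factors help build a complex and are absent from the finished enzyme. Proliferating myeloid progenitors hold active mitochondria, and mature neutrophils are known for relying largely on glycolysis.

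The 6 libraries held an implied 31100000 to 44700000 fragments, and 3 fragments on a transcript of 1 kb corresponded to between 0.0671 and 0.0965 FPKM. Cebpe measured 14.4 and 18.7 FPKM with sg2, 19.4 and 22.7 with sg5, and 42.0 and 100 in EV, in the order of replicate numbers 1 and 2. Of 10 myeloid progenitor markers 8 exceeded 1 FPKM on average, with Kit listed at 0 and Cd34 between 0.194 and 0.329 FPKM. All 7 mast cell and basophil markers exceeded 1 FPKM, and their summed level ran from 2260 to 3640 FPKM with guides and was 1550 and 3090 FPKM in EV. Of 9 late neutrophil markers 6 exceeded 1 FPKM, summing to between 141 and 196 FPKM with guides and to 453 and 689 FPKM in EV. Of the markers of other cells, 3 of 5 erythroid, 2 of 6 lymphoid, 3 of 5 macrophage and 0 of 4 epithelial and fibroblast genes exceeded 1 FPKM, and Hbb-bt, Epcam, Cd3e and C1qa were listed at 0 in all 6 libraries.

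All complexes were expressed at levels well above the minimum. Per transcript length, the median of the gene means was 96.3 FPKM over complex I subunits, 128 over complex II, 182 over complex III, 282 over complex IV and 279 over complex V. The assembly factors lay lower, at a median of 20.2 FPKM and a highest value of 27.9 (Ndufaf3). The highest of all 87 was Atp5e, the epsilon subunit of the ATP synthase head, at a mean of 627 FPKM, followed by Cox6c at 594. The lowest was Cox7a1, the heart and muscle form of a complex IV subunit, at 4.72 FPKM, and Ndufaf4 was next at 9.34. The nearest genes below the minimum were Cox6a2 at 0.41 and Cox6b2 at 0.34 FPKM, also tissue-restricted forms of complex IV subunits.

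For the complex IV subunits with tissue-specific forms, the widely expressed form carried nearly all of the signal. Cox4i1 measured between 329 and 463 FPKM with guides and 479 and 355 FPKM in EV, whereas Cox4i2, a form known from lung and from low oxygen, lay between 0 and 0.404 FPKM. Cox6a1, Cox6b1, Cox7a2 and Cox8a each exceeded 120 FPKM in every library. Cox6a2 and Cox6b2 reached at most 1.07 FPKM, Cox7b2 was above 0 in 1 library only, and Cox8b and Cox8c were listed at 0 throughout. Ndufa4, once assigned to complex I and now to complex IV, measured between 300 and 505 FPKM, and its relative Ndufa4l2 was listed at 0. Of 4 muscle markers, 1 (Ckm) exceeded 1 FPKM.

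**Figure D1:**
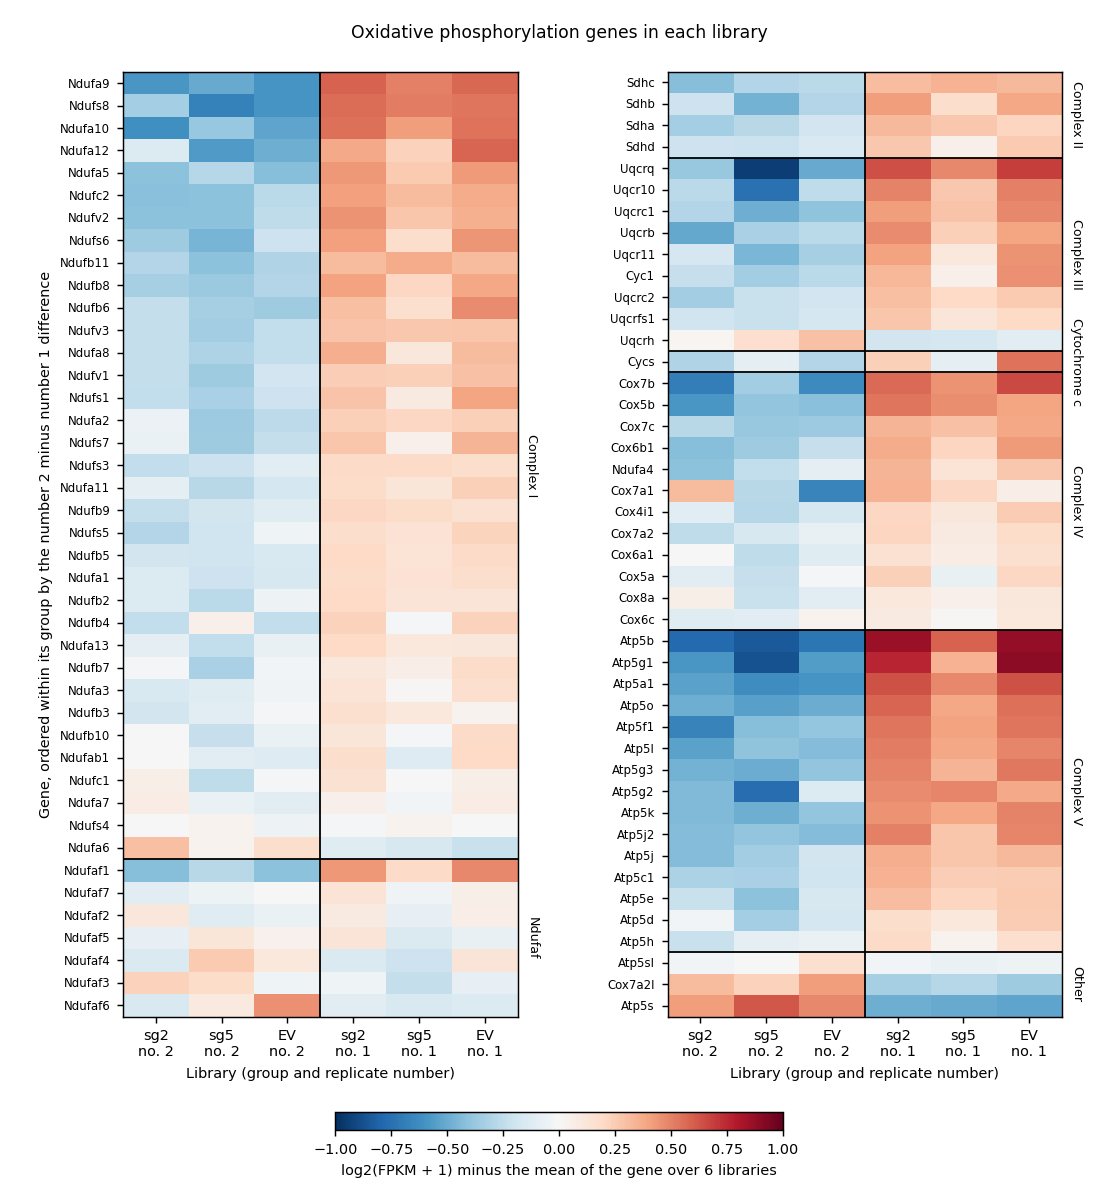
Deviation of each gene shown from its own mean over the 6 libraries, on the log2(FPKM + 1) scale, with libraries of replicate number 2 to the left of those of number 1 and guides to the left of EV. The colours change between the replicate numbers for most rows, and the sg2, sg5 and EV columns of 1 number resemble each other.

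Between guide and EV libraries no member passed the test. The differences are given on the log2(FPKM + 1) scale, and the test was limma with Benjamini-Hochberg adjustment over all 12929 genes at a threshold of 0.05. The median over the 87 genes was -0.06 and 72 of them (82.8%) were negative, against a median of 0.00 and 51.1% negative over the 10581 protein-coding genes tested. The test called 0% of all genes, and every member had an adjusted limma p of 1.00. None of the 87 had an unadjusted p under 0.05, compared with 169 (1.31%) of all genes. With the replicate number as a block, limma called 5 of all genes (0.0387%) and no member, and the smallest adjusted p among members was 0.813. The ranges of the guide and EV libraries overlapped for all 87 genes, where 2.56% of all genes had every guide library below both EV libraries and 2.54% had every guide library above. Guides and EV each hold both replicate numbers. For the 66 members with every number 2 library below every number 1 library, and the 5 with every one above, this overlap was fixed beforehand. The count is therefore no result about the guides. In single-gene exact two-sided permutation tests the smallest p was 0.2, with 0.0667 the smallest p possible for 4 against 2 libraries. The splits took no account of the replicate number. Where the numbers differ widely, such a p could hardly be reached, so this test says little about small guide differences.

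The small negative median was close to this value within each replicate number and depended on the EV libraries when the numbers were pooled. The guides lay at a median of -0.05 against EV within number 2 and -0.06 within number 1, where all genes had -0.01 and 0.00. Of the members 42 were negative in both numbers and 4 positive in both, a count not made over all genes. Without EV replicate 1 the pooled median was 0.16, and without EV replicate 2 it was -0.29, the remaining EV library then being set against guides of both numbers. With the replicate block the corresponding values were -0.05 and -0.06. Without the second sg5 library the pooled median was 0.04, and -0.04 with the block. Standard errors of single genes ranged from 0.11 to 0.68 without the block and from 0.06 to 0.21 with it.

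By complex, the guide differences were of like size. All 15 complex V subunits, all 9 complex III subunits and all 4 complex II subunits were negative, at medians of -0.07, -0.09 and -0.05. Complex I had 28 of 36 subunits below 0 (median -0.04) and complex IV 9 of 12 (median -0.04). Among the 7 assembly factors 4 were negative, with a median of -0.05. None of these counts contains a gene that passed the test, and 51.1% of the protein-coding genes tested were negative.

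The c subunit of ATP synthase, which forms the rotating ring, had the most negative group median, -0.18 over its 3 genes. Atp5g1 measured 71.6 and 183 FPKM with sg2, 58.4 and 137 with sg5, and 72.5 and 201 in EV, each for numbers 2 and 1. Both sg5 libraries lay below the EV library of their number (80.6% and 68.0%), and the sg2 libraries lay at 98.9% and 90.9%. The guide difference was -0.25 (SE 0.60, or 0.15 with the block). Atp5g3 contributed between 66.4% and 74.6% of the summed FPKM of the 3 genes with guides, and 70.3% and 65.5% in EV, and its guide difference was -0.10 (SE 0.41). With the FPKM of near-identical copies added to that of their gene, the share of Atp5g3 was 34.6% to 36.1% with guides, and 36.1% and 36.2% in EV. The median is the value of Atp5g2, which stood at -0.46 against EV within number 2 and 0.10 within number 1, and at 0.01 once its identical copy Gm10175 was added.

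No gene of complexes II and III passed the guide test. Sdha and Sdhb, which form the catalytic part of succinate dehydrogenase, had guide differences of -0.02 (SE 0.26) and -0.07 (SE 0.31). The membrane anchors Sdhc and Sdhd had -0.04 (SE 0.31) and -0.08 (SE 0.21). Cyc1, the cytochrome c1 of complex III, averaged 86.3 ± 18.7 FPKM with guides (SD, n = 4) and 96.8 ± 33.9 FPKM in EV (SD, n = 2), a difference of -0.14 (SE 0.28). Uqcr10, a small complex III subunit, averaged 217 ± 79.2 FPKM with guides and 243 ± 88.5 FPKM in EV. Cycs, the electron carrier cytochrome c, averaged 18.8 ± 3.12 FPKM with guides and 22.3 ± 9.33 FPKM in EV (difference -0.19, SE 0.27). In each of these 7 genes the SD of the EV libraries exceeded the distance between the group means. The 2 EV libraries are 1 of each replicate number, so that SD includes the difference between the numbers. With the block the SEs of the 7 guide differences lay between 0.07 (Sdha) and 0.17 (Cycs), and Uqcr10 had -0.19 (SE 0.15).

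Complex IV held the highest guide difference. Cox7a1 measured 5.91 and 6.08 FPKM with sg2, 3.59 and 5.42 with sg5, and 2.51 and 4.81 in EV, for numbers 2 and 1. Each guide library lay above the EV library of its number, and the difference was 0.45 (SE 0.28), with a limma adjusted p of 1.00. It was 0.81 without EV replicate 1 and 0.08 without EV replicate 2, or 0.68 and 0.21 with the block. Cox5a, a subunit on the matrix side, was negative with sg5 in both numbers, at 86.4% and 81.9% of EV, and stood at 94.4% and 102% with sg2. Among assembly factors, Ndufaf6 averaged 9.29 ± 0.912 FPKM with guides and 11.4 ± 3.58 FPKM in EV (difference -0.24, SE 0.20). The EV libraries of Ndufaf6 were far apart, at 13.9 FPKM in number 2 and 8.84 in number 1.

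Neither guide on its own gave a call among the members. For sg5 against EV the median was -0.10, with 77 of 87 genes (88.5%) negative, against -0.01 and 52.7% over the protein-coding genes tested. The limma test called 0% of all genes (0.0155% with the block). For sg2 against EV the median was -0.02, with 51 (58.6%) negative, against 0.00 and 48.1% over the protein-coding genes tested. Here limma called 0.00773% of all genes (0.0232% with the block). Within numbers 2 and 1 the sg5 medians were -0.09 and -0.10, and the sg2 medians -0.04 and 0.01. With the block 6 members had an unadjusted limma p under 0.05 for sg5 (Atp5g1, Uqcr10, Ndufs6, Cox5a, Uqcrq and Sdhb, all negative) and 1 for sg2 (Cox7a1, positive). These are 6.9% and 1.15% of the members, where 8.04% and 4.3% of all genes had such a p. Their adjusted p was at least 0.519 for sg5 and at least 0.998 for sg2. The comparisons of sg2 and sg5 with EV share the EV libraries.

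Set against each other, the guides differed by a median of -0.07 (sg5 minus sg2), with 69 of 87 genes (79.3%) negative. Over the protein-coding genes tested the median was -0.01, with 53.9% negative. Limma called 0% of all genes, with and without the block. The medians were -0.05 in number 2 and -0.12 in number 1. With the block 8 members (9.2%) had an unadjusted limma p under 0.05, against 5.29% of all genes, and the smallest adjusted p was 0.854. When the second sg5 library was counted as sg2, following its source name, the sg5 minus EV median became 0.12, with 1 sg5 library of number 1 then set against EV libraries of both numbers. Against the EV library of its own number that sg5 library had a median of -0.10, with 72 of 87 genes negative. The same median over all genes was 0.00.

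**Figure D2:**
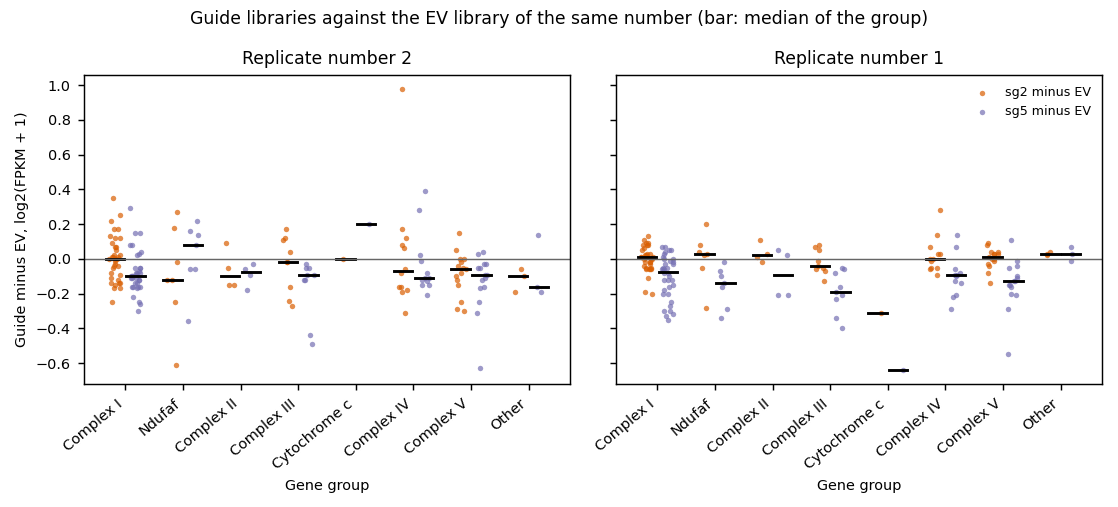
Differences of sg2 and sg5 libraries from the EV library of the same replicate number, on the log2(FPKM + 1) scale, 1 point per gene and a bar at the median of each group of genes. Medians lie near 0, and the sg5 medians of complexes I, II, III, IV and V are below 0 in both panels.

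Between the replicate numbers the same genes differed widely. With the group as a term, limma called 65 of the 87 genes lower and 4 higher in number 2 than in number 1, at an adjusted p under 0.05. Of all 12929 genes it called 26.9% lower and 20.2% higher. The median difference was -0.51 over the 87 genes and -0.07 over the protein-coding genes tested. Within each group the median was close to that value, at -0.52 in sg2, -0.43 in sg5 and -0.49 in EV. In 73 genes all 3 groups had the lower value in number 2, in 6 all 3 had the higher, and in 8 the groups differed in sign. Every number 2 library lay below every number 1 library for 66 genes and above for 5, against 34.1% and 27% of all genes. The genes took between 2.10% and 2.20% of the protein-coding FPKM in number 2, and between 2.58% and 2.75% in number 1.

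Scaling each library to its median gene changed the split over all genes to 24.8% higher and 21.9% lower, and gave a median of 0.03 over all genes where it had been -0.04. Among the members 58 were then lower and 5 higher. Leaving out 1 library at a time left between 45 and 54 members lower and 2 or 3 higher. The shares over all genes in these refits are not given, so these counts have no background beside them. What the replicate number stands for is not given, and other features moved with it. Genes shorter than 200 nt took between 15.4% and 21.5% of the summed FPKM in number 2 and between 6.77% and 9.67% in number 1. Mpo, a granule enzyme of myeloid progenitors, measured 12.3, 14.8 and 13.0 FPKM in number 2 and 41.5, 123 and 151 FPKM in number 1 (sg2, sg5, EV). The 10 progenitor markers did not all move with Mpo. In the same order they summed to 787, 722 and 687 FPKM in number 2 and 729, 1020 and 899 FPKM in number 1. In each group Il3ra was higher and Csf2rb lower in number 2. The mast cell and basophil markers summed to between 3090 and 3640 FPKM in number 2 and between 1550 and 3160 FPKM in number 1. Most of that sum was Fcer1a, which with Cpa3, Gata2 and Prss34 was higher in number 2 in each group. Ms4a2 was lower in number 2 in sg5 and EV, and Mcpt8 and Hdc were lower in sg5. The part of these features in the difference was not tested, and in bulk RNA fewer cells of a type and less RNA per cell cannot be told apart.

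**Figure D3:**
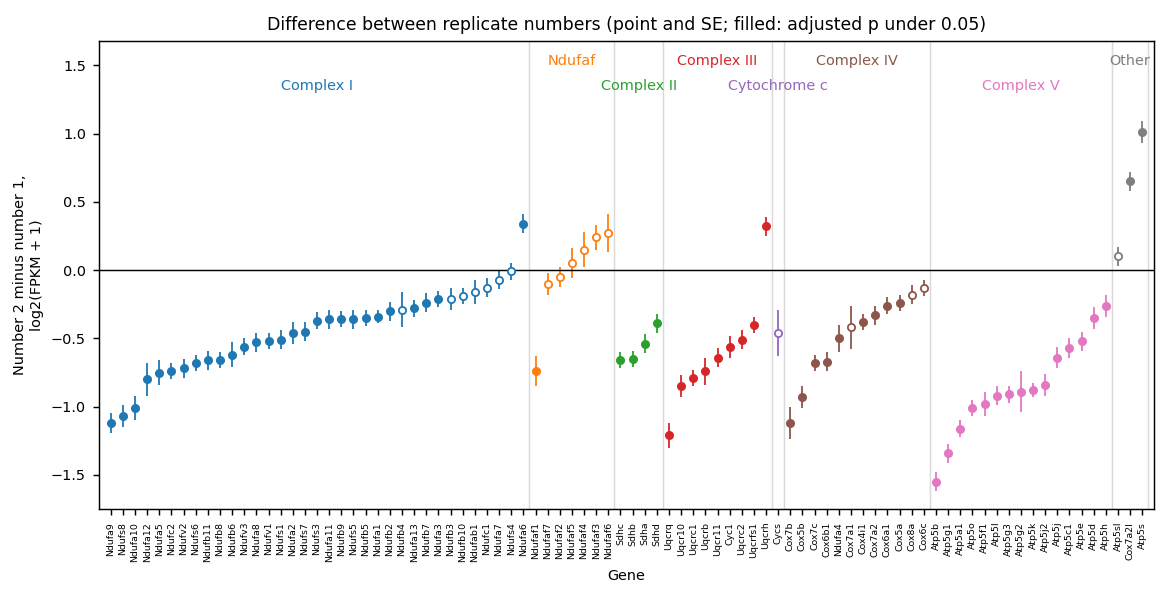
Difference of each gene shown between the replicate numbers (number 2 minus number 1, log2(FPKM + 1), group as a term), with its limma SE, ordered within complexes. Filled points passed the adjusted threshold; all 15 complex V and all 4 complex II points are filled and below 0, and most Ndufaf points are open and near 0.

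Complex V showed the largest median, -0.89, and all 15 of its subunits were called lower in number 2, against 26.9% of all genes. Atp5b, the catalytic beta subunit of the F1 head, measured 206, 197 and 214 FPKM in number 2 and 644, 532 and 649 FPKM in number 1 (sg2, sg5, EV). The libraries of number 2 thus stood at 33.8% of those of number 1, with no overlap (difference -1.55, SE 0.07, limma adjusted p = 0.00164). Atp5a1, the alpha subunit that alternates with beta around the head, averaged 172 ± 5.08 FPKM in number 2 and 386 ± 23.6 FPKM in number 1 (SD, n = 3 each). The remaining F1 subunits Atp5c1, Atp5d and Atp5e were lower by less, with differences of -0.57, -0.35 and -0.52. All 4 peripheral stalk subunits, which hold the head still, were lower, from Atp5o (-1.01) and Atp5f1 (-0.98) to Atp5h (-0.26). The small membrane subunits Atp5j2, Atp5k and Atp5l lay close together, between -0.92 and -0.84.

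The 3 c subunit genes encode the same mature protein behind different import sequences, and all 3 were lower in number 2. Atp5g1 measured 71.6, 58.4 and 72.5 FPKM in number 2 and 183, 137 and 201 FPKM in number 1 (sg2, sg5, EV), a difference of -1.34 (SE 0.07, limma adjusted p = 0.00179). Atp5g3 averaged 235 ± 8.34 FPKM in number 2 and 444 ± 31.9 FPKM in number 1, a difference of -0.91 (SE 0.06). Atp5g2 averaged 25.2 ± 5.63 FPKM in number 2 and 46.9 ± 1.89 FPKM in number 1, a difference of -0.89 (SE 0.15). Their summed FPKM was 307 to 348 in number 2 and 593 to 713 in number 1. The share of Atp5g1 in that sum was 19% to 21.8% in number 2 and 23.1% to 28.2% in number 1, or 12.9% to 14.9% in number 2 and 15.2% to 19.6% in number 1 with the copies added.

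In complex I, 28 of 36 subunits were called lower and 1 higher in number 2, with a median of -0.41. Of all genes 26.9% were called lower and 20.2% higher. All 7 core subunits, which carry the electron path and are conserved from bacteria, were lower (median -0.52, range -1.07 to -0.37), as were 21 of 29 accessory subunits (median -0.36). Ndufs8, an iron-sulfur core subunit, measured 35.7, 28.1 and 29.9 FPKM in number 2 and 67.6, 65.2 and 66.2 FPKM in number 1 (sg2, sg5, EV). Ndufa9, an accessory subunit that binds NADPH, measured 34.2, 36.2 and 34.1 FPKM in number 2 and 78.4, 73.7 and 77.6 FPKM in number 1. Both genes had values in number 2 at under 50% of those in number 1, and their differences were -1.07 (SE 0.08, limma adjusted p = 0.00226) and -1.12 (SE 0.07, limma adjusted p = 0.00186).

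Other complex I subunits were higher or did not pass. Ndufa6 was higher, at 232, 193 and 213 FPKM in number 2 and 173, 168 and 161 FPKM in number 1 (difference 0.34, SE 0.07, limma adjusted p = 0.0197). Ndufs4, an accessory subunit whose loss causes severe complex I deficiency in mice, averaged 39.5 ± 1.18 FPKM in number 2 and 39.7 ± 0.781 FPKM in number 1. Its difference was -0.01 (SE 0.06), and 0.07 after median scaling. Ndufa7, Ndufab1, Ndufb3, Ndufb4, Ndufb10 and Ndufc1 also did not pass, with differences between -0.29 and -0.07.

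The assembly factors of complex I differed from its subunits in their counts, beside 26.9% of all genes called lower and 20.2% called higher. Of the 7, only Ndufaf1, a factor of the membrane arm, passed the test, at 14.3, 16 and 14.5 FPKM in number 2 and 26.7, 22.5 and 27.7 FPKM in number 1 (difference -0.74, SE 0.11, limma adjusted p = 0.0075). The other 6 had differences between -0.10 (Ndufaf7, a methyltransferase) and 0.27 (Ndufaf6), and the median of the 7 was 0.05. Ndufaf3 averaged 30.3 ± 3.07 FPKM in number 2 and 25.4 ± 1.89 FPKM in number 1. Its difference of 0.24 passed the test only after median scaling, as 0.32. These genes lie at lower levels than the subunits, and the difference between subunits and factors was itself not tested.

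Complex II and complex III were lower throughout, with 1 exception, where 26.9% of all genes were called lower and 20.2% higher. Sdha, Sdhb, Sdhc and Sdhd had differences of -0.54, -0.65, -0.66 and -0.39, and for each of them every number 2 library lay below every number 1 library. Sdhb, which holds the iron-sulfur clusters, measured 72.4, 60.1 and 68.1 FPKM in number 2 and 112, 94.6 and 110 FPKM in number 1 (SE 0.06, limma adjusted p = 0.00263). Of 9 complex III subunits 8 were lower, and the catalytic pair Cyc1 and Uqcrfs1 (the Rieske protein) had differences of -0.56 and -0.40. Uqcrq, a small subunit beside cytochrome b, measured 127, 86.1 and 117 FPKM in number 2 and 260, 232 and 269 FPKM in number 1 (difference -1.21, SE 0.09, limma adjusted p = 0.00238). Uqcrh, the hinge protein near cytochrome c1, went the other way with 471, 522 and 569 FPKM in number 2 and 408, 411 and 429 FPKM in number 1 (difference 0.32, SE 0.07, limma adjusted p = 0.0185).

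In complex IV 9 of 12 subunits were called lower and none higher, with a median of -0.40. The shares over all genes were 26.9% lower and 20.2% higher. Cox7b, a small accessory subunit, measured 66.6, 84.8 and 69.5 FPKM in number 2 and 161, 148 and 172 FPKM in number 1 (difference -1.12, SE 0.12, limma adjusted p = 0.00372). Cox5b, a zinc-binding subunit, averaged 131 ± 8.88 FPKM in number 2 and 249 ± 12.1 FPKM in number 1 (difference -0.93, SE 0.08). Cox6c, Cox7a1 and Cox8a did not pass, with differences of -0.13, -0.42 and -0.18. The electron carrier Cycs did not pass either, at -0.46 (SE 0.17, limma adjusted p = 0.0872).

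The 3 factors outside the complexes had higher means in number 2. Atp5s, which encodes a regulatory factor known as coupling factor B, measured 16.9, 19.6 and 17.7 FPKM in number 2 and 8.54, 8.47 and 8.27 FPKM in number 1 (difference 1.01, SE 0.08, limma adjusted p = 0.00234). Cox7a2l, which joins complexes III and IV into supercomplexes, measured 403, 380 and 432 FPKM in number 2 and 257, 265 and 253 FPKM in number 1 (difference 0.65, SE 0.07, limma adjusted p = 0.00398). Atp5sl had a difference of 0.10 (SE 0.07), which did not pass.

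**Figure D4:**
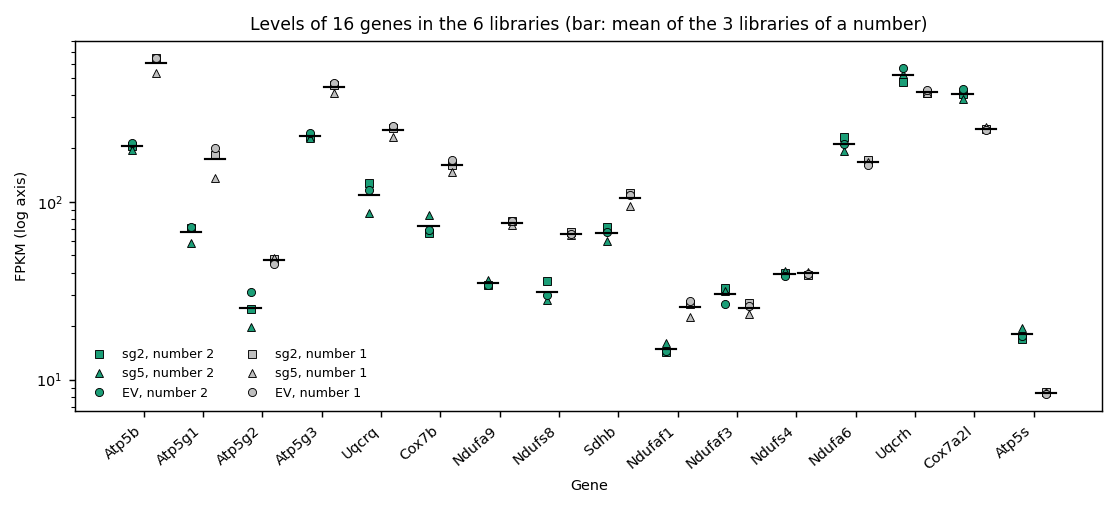
FPKM of 16 genes on a log axis, with libraries of number 2 to the left of those of number 1, symbols for sg2, sg5 and EV, and a bar at the mean of 3 libraries. Atp5b has 197 to 214 FPKM in number 2 and 532 to 649 in number 1, Ndufs4 is level near 40, and Uqcrh, Cox7a2l, Ndufa6 and Atp5s are higher in number 2.

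The promoters of the genes that differed most between the numbers are shown because many of these genes moved together. RefSeq (GRCm38.p6) gave promoters by symbol for 71 of the 87 genes, 5 of them with 2. From these, the 3 genes with the largest fall whose promoter may be shown (with Ndufa9 level with Cox7b at 2 decimals) are Atp5b (chr10:128083057-128083306, plus strand), Atp5g1 (chr11:96075632-96075881, minus strand) and Ndufa9 (chr6:126849145-126849394, minus strand). The 3 with a rise are Cox7a2l (chr17:83514334-83514583), Ndufa6 (chr15:82354292-82354541) and Uqcrh (chr4:116075071-116075320), all on the minus strand. Each sequence is the 250 bases before RefSeq's gene start, 5′ to 3′ along the gene. Capitals mark matches on either strand to the NRF1 core GCGCANGC, the ETS core CCGGAAG (bound by GABP), the YY1 core ATGGCGG or the box CCAAT, the last searched after these sequences had been seen.
Atp5b: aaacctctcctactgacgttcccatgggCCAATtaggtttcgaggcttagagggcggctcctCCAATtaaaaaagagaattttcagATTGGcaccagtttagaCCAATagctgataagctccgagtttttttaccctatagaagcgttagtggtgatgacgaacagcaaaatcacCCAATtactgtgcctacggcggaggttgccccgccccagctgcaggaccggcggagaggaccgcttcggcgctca
Atp5g1: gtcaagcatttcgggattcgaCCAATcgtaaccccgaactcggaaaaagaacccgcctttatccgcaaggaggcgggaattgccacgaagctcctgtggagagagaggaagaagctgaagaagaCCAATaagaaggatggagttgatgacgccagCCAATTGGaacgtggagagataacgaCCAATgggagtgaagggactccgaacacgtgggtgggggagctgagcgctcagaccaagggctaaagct
Ndufa9: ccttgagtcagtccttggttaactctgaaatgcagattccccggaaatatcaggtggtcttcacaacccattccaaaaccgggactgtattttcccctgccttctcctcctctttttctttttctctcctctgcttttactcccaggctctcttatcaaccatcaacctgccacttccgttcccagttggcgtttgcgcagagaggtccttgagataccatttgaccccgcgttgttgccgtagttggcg
Cox7a2l: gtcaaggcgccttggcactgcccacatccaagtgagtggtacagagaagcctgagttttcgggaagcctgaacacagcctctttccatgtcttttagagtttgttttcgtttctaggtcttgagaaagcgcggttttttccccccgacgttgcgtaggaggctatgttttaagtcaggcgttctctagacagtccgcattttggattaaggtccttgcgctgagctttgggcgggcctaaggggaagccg
Ndufa6: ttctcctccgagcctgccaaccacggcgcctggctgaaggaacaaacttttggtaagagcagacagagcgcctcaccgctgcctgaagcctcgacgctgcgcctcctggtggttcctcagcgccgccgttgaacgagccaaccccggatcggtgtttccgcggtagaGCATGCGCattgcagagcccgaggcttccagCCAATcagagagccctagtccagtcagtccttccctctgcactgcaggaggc
Uqcrh: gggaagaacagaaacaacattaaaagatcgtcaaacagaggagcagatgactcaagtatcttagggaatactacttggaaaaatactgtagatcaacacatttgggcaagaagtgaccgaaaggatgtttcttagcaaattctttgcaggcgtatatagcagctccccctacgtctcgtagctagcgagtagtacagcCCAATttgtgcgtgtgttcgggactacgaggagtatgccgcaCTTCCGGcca

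In these 250 bases Atp5b and Atp5g1 each hold 5 matches to CCAAT and none to the other cores. Ndufa6 holds 1 NRF1 core and Uqcrh 1 ETS core there, with 1 CCAAT each, and Ndufa9 and Cox7a2l hold no match. With the 50 bases after the start included, Atp5b and Ndufa9 each hold 1 YY1 core and Ndufa6 holds 3 NRF1 cores. Over the full 300 bases, which include 50 after the start, the NRF1 core was present in 35.5% of the 76 member promoters, 20.9% of the promoters of protein-coding genes above the minimum and 9.95% of all promoters. The ETS core was present in 22.4%, 19.2% and 8.86%, and the YY1 core in 15.8%, 8.72% and 4.05%. At least 1 CCAAT stood in 42.1%, 38.1% and 37.4%, and at least 3 in 6.58%, 5.29% and 3.37%. Genes called lower in number 2 held 1 or more of the 3 cores in 59.6% of 57 promoters, and the other members in 63.2% of 19. A match describes the letters only, and where matches overlap, as in 1 CCAAT pair of Atp5g1, each was counted.

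Several members share sequence with other genes, and their levels are uncertain because reads can be split between copies. Of the members, 8 have at least 1 copy in GENCODE M21 that matches over 90% or more of its length at 95% or more identity and exceeds 1 FPKM. Some copies were listed far above the member, such as Gm10175 at 419 FPKM beside Atp5g2 at 36.1, Gm3244 at 130 beside Ndufb4 at 21.1, and Gm10053 at 75.8 and Gm10108 at 68.9 beside Cycs. Adding the copies to the member, a step chosen after seeing the data, gave Cycs a number difference of -0.73 (SE 0.17, limma adjusted p = 0.0245) and Ndufb4 one of -0.25 (limma adjusted p = 0.0369), so both then passed. The other 6 (Atp5g1, Atp5g2, Atp5l, Cox7a2l, Cox7c and Ndufa12) passed in both forms, with differences of -1.28, -0.83, -0.91, 0.67, -0.56 and -0.65 after adding. In 19 members, among them Atp5a1, Atp5j, Ndufb5 and Ndufs1, an exon overlaps an exon of another measured gene on the opposite strand. The kit's strandedness is not stated, so reads that lie within the overlapping stretch of such a pair cannot be told apart. The overlap was 129 nt for Atp5a1 and Haus1, 397 nt for Atp5j and Gabpa, and 616 nt for Ndufb5 and Mrpl47.

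Other genes of mitochondrial energy metabolism were followed as 4 lists. Between guides and EV none of the 41 assembly factors outside the naming rule, 17 regulators of mitochondrial biogenesis, 20 genes of pyruvate dehydrogenase and the citric acid cycle, or 27 carriers passed the limma test. Their medians were -0.06, -0.03, -0.05 and -0.03. The regulator of smallest p was Pprc1, a coactivator related to PGC-1, at 8.51, 6.30, 7.92 and 8.63 FPKM with guides (sg2 numbers 1 and 2, sg5 numbers 1 and 2) and 13.2 and 7.57 FPKM in EV (difference -0.33, SE 0.24). In the assembly list Nubpl, which inserts iron-sulfur clusters into complex I, had a difference of 0.21 (SE 0.20), and Coa6, a complex IV factor, -0.18 (SE 0.18).

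Between the numbers, 18 of 20 citric acid cycle genes were lower and 1 higher, with a median of -0.61, and 19 of 27 carriers were lower and 2 higher, with a median of -0.56. Slc25a5, an exchanger of ADP and ATP across the inner membrane, averaged 82.1 ± 5.89 FPKM in number 2 and 501 ± 52.7 FPKM in number 1 (SD, n = 3 each), a difference of -2.59 (SE 0.06, limma adjusted p = 0.00139). Its relative Slc25a4 had a difference of -1.45 (SE 0.06), and Coq7, an enzyme of ubiquinone synthesis, -1.48 (SE 0.07). Cs, the citrate synthase, averaged 75.1 ± 4.62 FPKM in number 2 and 117 ± 5.15 FPKM in number 1. Among regulators 9 of 17 were lower and 2 higher. Tfam, which packages mitochondrial DNA, had a difference of -0.71 (SE 0.06) and Gabpb2, a GABP partner, -1.17 (SE 0.08), whereas Polg2, an accessory subunit of the mitochondrial DNA polymerase, was higher by 0.82 (SE 0.07). Of the 41 other assembly factors 15 were lower and 4 higher, with a median of -0.18. Lrpprc, which stabilises mitochondrial mRNAs, had the smallest p among them, with 14.0 ± 1.19 FPKM in number 2 and 29.0 ± 3.23 FPKM in number 1. These lists were set against the same all-gene shares of 26.9% lower and 20.2% higher.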

How the data were processed

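RNA from 6 libraries was analysed. Per the labels' protocols, RNeasy columns gave the RNA, and a TruSeq RNA kit and a HiSeq 4000 were used for sequencing. Tools and builds listed, without roles, in the submitters' processing notes are DESeq2, kallisto 0.43.0, GRCm38 and mm10. The authors deposited 1 table of FPKM values per library. Differences were computed as log2(FPKM + 1) for the genes averaging 1 FPKM or more and tested with limma 3.58.1 (trend, R 4.3.3), with Benjamini-Hochberg adjustment over 12929 genes and a threshold of 0.05. FPKM are not counts, and this scale understates changes of low genes. Depth was implied from the steps of low FPKM values, assuming a fragment of 200 nt.

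The fit reported first had no replicate term. Libraries of 1 number deviated together (correlations of 0.611, 0.591 and 0.583 between the groups). The number was therefore treated as pairing them in a second guide fit, with the number as a block. Blocked values are given for part of the results. Unless stated, the SE of a guide difference is from the fit without the block, where it includes the difference between the numbers. For Atp5g1 it was 0.60 without the block and 0.15 with it. The meaning of the number comes from no label. Single genes were also tested by exact permutation over the libraries. The members and lists were chosen with earlier results of these data known. Genes named singly had the smallest p per complex or list, the largest differences, or were chosen after their values were seen. Copies were found with blastn 2.17.0, and promoters came from RefSeq. The test was tried on simulated data. Alternatives were other pseudocounts, filters and scalings, the replicate block, and leaving out each library. One complex I subunit, counted in every total, is not reported here by name and is not drawn in the plots that label genes.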

Additional observations from a re-analysis of the deposited data

Results flagged for a closer look

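Of the 87 genes, 2 had a guide library standing apart from the other 3 by Dixon's criterion for 4 samples. Ndufaf4 measured 11.3 FPKM in sg5 number 2 and 7.88 to 8.29 FPKM in the other guide libraries, with a ratio of gap to range of 0.88. Ndufaf6 measured 10.6 FPKM in the same library and 8.73 to 9.0 FPKM in the others, with a ratio of 0.856. Both encode complex I assembly factors of low level, and the library is the one whose labels disagree. Chance marks about 1 in 20 groups of 4 like samples, a rate that does not hold here, since the guide libraries are 2 of each replicate number.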

How the results depend on the processing

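With the replicate block, 0 members were called for guides against EV and the median was -0.06, as without it, and the block changed no member's call. Adding near-identical copies turned the Atp5g2 guide difference to 0.01. In the number comparison, median scaling turned Ndufa7 to 0.01, Ndufs4 to 0.07 and Ndufaf2 to 0.03, and the cause was not tested.

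Leaving out 1 library, with or without the block, gave guide differences of -0.98 to 0.48 for Atp5g1, -0.46 to 0.10 for Atp5g2 (lowest -0.44 without the block), -0.19 to 0.05 for Atp5h, 0.08 to 0.81 for Cox7a1, -0.50 to 0.22 for Cyc1, -0.61 to 0.23 for Cycs, -0.20 to 0.01 for Ndufa3, -0.06 to 0.25 for Ndufaf3, -0.54 to 0.06 for Ndufaf6, -0.27 to 0.00 for Ndufs5, -0.23 to 0.18 for Sdha, -0.41 to 0.27 for Sdhb, -0.34 to 0.25 for Sdhc, -0.29 to 0.13 for Sdhd, -0.57 to 0.19 for Uqcr10 and -0.34 to 0.07 for Uqcrh. Without the block, leaving out 1 library sets unequal shares of the numbers against each other. With the block the refits ran from -0.34 to -0.15 for Atp5g1 and from -0.26 to -0.02 for Cyc1. Atp5g2 and Cycs, among others, changed sign with the block too, each reaching 0.10. On leaving out 1 library, number differences ran from -0.02 to 0.01 for Ndufs4, -0.01 to 0.24 for Ndufaf4 and -0.05 to 0.19 for Ndufaf5.

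Of the 69 members called between numbers, 62 were still called after median scaling, where 24.8% of all genes were higher and 21.9% lower. With no filter 62 were still called, and fewer without 1 EV library. The shares over all genes in those refits are not given here. The 2 EV libraries limit the guide comparison: the medians of the 87 genes in each library spread by 0.44 (log2) within a group and by 0.08 within a number.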
